A study of Mus musculus with 16 samples.

Results

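The genes described here are 41 genes of S-phase entry and DNA replication, chosen by name for their role and read by every array probe whose platform symbol matched. Of the 41 genes, 38 were named by at least 1 of 64 probes. For 33 of them, read by 47 probes, a signal above background allowed a test, among 10013 genes tested in all. The measurements are from 16 single-colour Illumina bead arrays, and the tissue label is dorsal skin of mice aged 15 days. The mutant group, 7 arrays, has the genotype K14-cre; Gab1fl, and the control group, 9 arrays, is labelled only as control, without its alleles. Both groups are of a mixed C57/BL6;129Ola background. In K14-cre mice the keratin 14 promoter drives Cre in basal keratinocytes and in hair follicle epithelium, so that dermal, immune and vascular cells keep the floxed allele intact. Gab1 is a docking protein that passes signals from receptor tyrosine kinases to the ERK and PI3K pathways.

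Replication starts at origins that were licensed in G1. The origin recognition complex (Orc proteins), Cdc6 and Cdt1 load the ring-shaped Mcm2 to Mcm7 helicase onto DNA, cyclin E with Cdk2 and the kinase Cdc7 then fire the origins, and Cdc45 with the GINS complex turns the loaded ring into the moving helicase. Most of these genes are transcribed under E2F factors at the G1/S transition and are low in resting cells. In growing back skin the cells that divide are mainly those of the hair matrix, the bulb of the follicle, and of the basal epidermis.

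The 16 arrays did not behave as 16 independent samples. Arrays of a group fell into sets correlating at 0.994 to 0.996 over the tested probes, against 0.935 to 0.936 between the sets of the mutant group and 0.961 to 0.986 between those of the control group. Each set was therefore counted as 1 sample, called a source here, which gave 2 mutant sources (3 and 4 arrays) and 3 control sources (3 arrays each), every source lying on both slides. The labels do not tell whether a source is an animal or a pool. The p-values therefore set the group difference only against the scatter of these sources, and that scatter may be partly technical. All signals are on the log2 scale after background correction and quantile normalization. Gab1, the targeted gene, stood at 11.34 and 11.97 in the mutant sources, against 12.69, 12.69 and 12.68 in the control sources (difference -1.03, limma adjusted p = 0.239; exact two-sided permutation test p = 0.1, the smallest that 10 splits allow). Where the probe lies relative to the deleted part of Gab1 is not stated in the labels. Basal keratinocyte markers were measured by 8 of 8 genes, with a median signal of 14.29 and 14.38 in the mutant sources and of 14.23 to 14.39 in the control sources. Dermal fibroblast genes were also present (8 of 8, medians of 11.03 and 11.19 in mutant sources and 11.01 to 11.24 in control sources), as were endothelial genes (7 of 8). The design text speaks of sorted cells positive for integrin alpha 6, and which material was hybridised is not settled by the labels.

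The clearest feature of the replication genes was the distance between the 2 mutant sources. Mutant source 1 had the highest signal of all 5 sources for 33 of the 33 genes, where 30.0% of all tested genes had their highest signal in that source. Every array of mutant source 1 lay above every other array for 30 of the 33 genes, against 17.4% of all tested genes. Mutant source 2 was not like it. For 21 genes it lay within the range of the control sources, for 7 it lay above all of them and for 5 below all of them. Over all tested genes it was above in 34.4% and below in 39.0%.

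A different number of dividing cells and a different amount of RNA per cell cannot be told apart in bulk signals of this kind. Relative to the mean of the 3 control sources, the median of the 33 genes was 1.06 on the log2 scale in mutant source 1 and -0.06 in mutant source 2. The same medians over all tested genes were 0.02 and -0.04. The gap between the mutant sources had a median of 1.21 over the 33 genes (0.20 for Ccne2 to 1.99 for Tk1), and 23 of the 33 genes had mutant source 1 above mutant source 2 by more than 1, against 8.16% of all tested genes. The spread among arrays of a source was far smaller, with a median SD of 0.0802 per gene.

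The control sources differed among themselves in a fixed order. Control source 1 was above control source 2, and that above control source 3, for 32 of the 33 genes, Cdc7 being the exception. Control source 3 was the lowest of the control group for the same number of genes, against 43.7% of all tested genes. The range over the control sources had a median of 0.72 for these genes and 0.32 for all tested genes. For 27 of the 33 genes the gap between the mutant sources was wider than this control range, as it was for 61.1% of all tested genes. The commonest order, in 18 genes, ran from mutant source 1 over control source 1, control source 2 and mutant source 2 to control source 3.

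**Figure D1:**
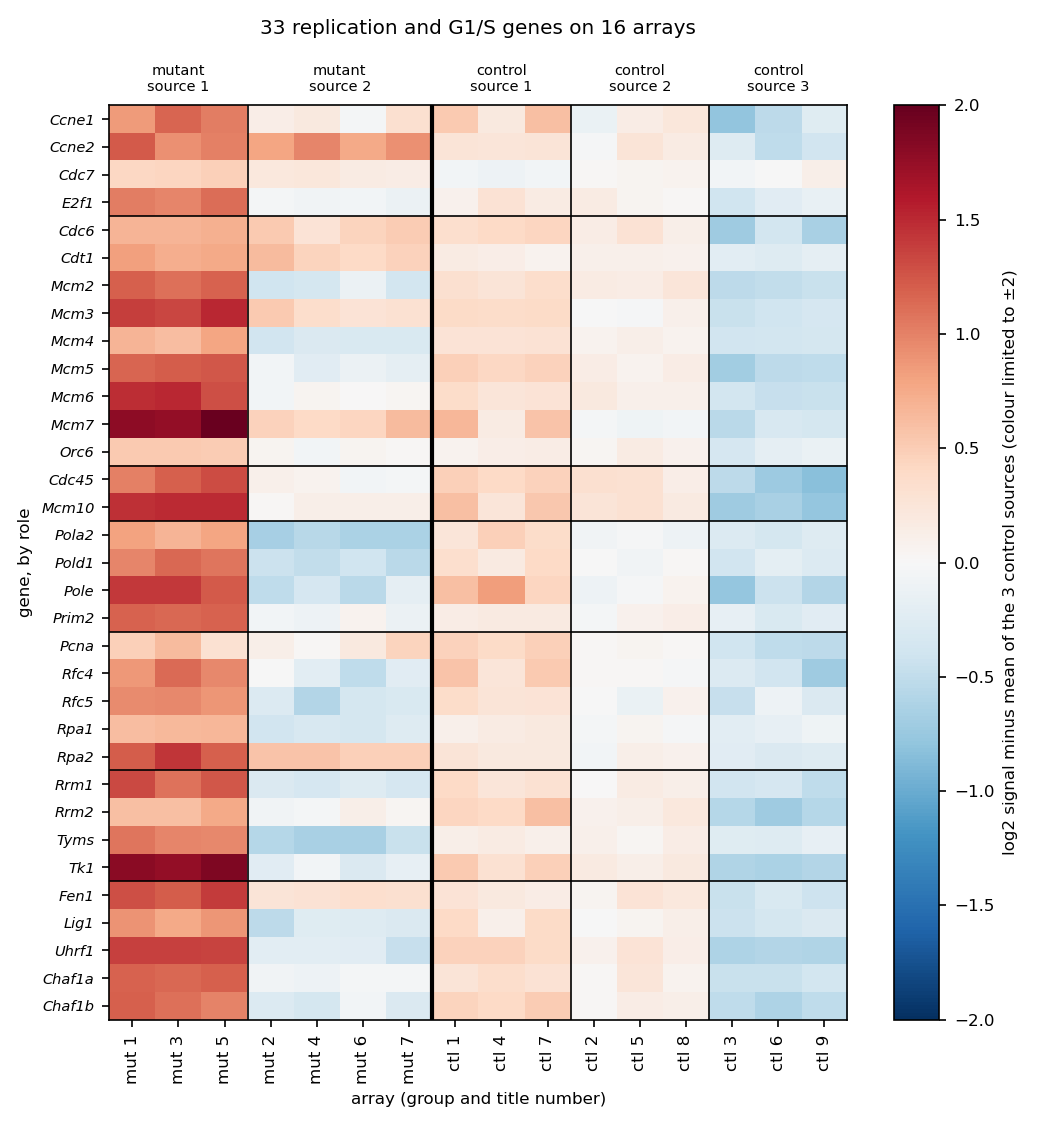
Heat map of the log2 signal of 33 genes (rows, by role) on 16 arrays (columns, mutant sources left, control sources right), each row centred on the mean of the 3 control sources. The 3 arrays of mutant source 1 are red throughout, the 4 arrays of mutant source 2 are mixed, and control source 3 is blue for all rows but Cdc7.

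No gene of the group passed the test. The mean of the mutant sources exceeded that of the control sources for 33 of 33 genes and 47 of 47 probes (53.2% of all probes), with a median log2 difference of 0.48 over the genes (0.00 over all tested genes). None of the 47 probes passed at a limma adjusted p below 0.05, with 0.301 the smallest, where 0.0552% of all probes did. With all 16 arrays in the fit and the source as a random block, 883 of the 14504 tested probes passed. Among them were 4 of the 47, those of Cdt1, Mcm3, Rpa2 and Fen1. That fit takes 1 correlation within sources for all probes, so arrays lying closer than it implies count as partly separate. In the limma fit of source means 5 of the 47 probes were at an unadjusted p below 0.05, all higher, for which the background is 5.62%. These were the probes of Ccne2 and Cdt1, both tested probes of Rpa2 and a dim probe of Tyms. Without mutant source 1 the median difference of the 33 genes was -0.06 and 15 of them were above 0. Without mutant source 2 it was 1.05, and without control source 3 it was 0.25.

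Both mutant sources lay above all 3 control sources for 7 of the 33 genes (Ccne2, Cdc7, Cdc6, Cdt1, Mcm7, Rpa2 and Fen1), or 21.2%, and below them for 0. Among all tested genes 14.1% lay above and 15.3% below, so the share of the 33 that separated upward was not far from that background. Since mutant source 1 was highest for all 33 genes, these are the 7 in which mutant source 2 lay above all control sources. For 4 of them (Ccne2, Cdc7, Cdt1 and Rpa2) every single mutant array was above every control array, against 5.74% of all tested genes.

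**Figure D2:**
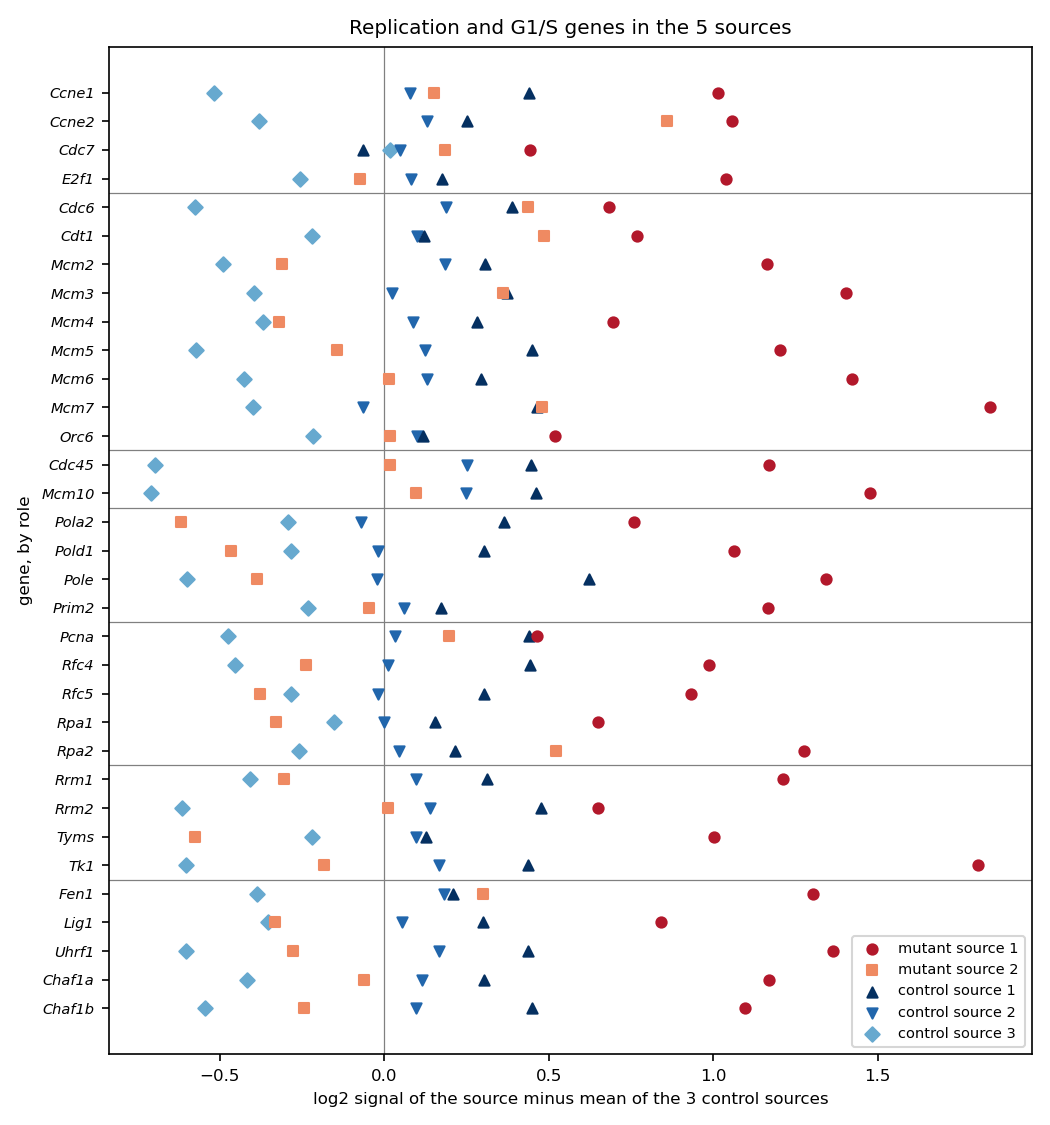
Log2 signal of each source minus the mean of the 3 control sources, for 33 genes grouped by role from top to bottom (G1/S regulators, origin licensing, helicase activation, polymerases and primase, clamp and single-strand binding, nucleotide synthesis, strand maturation and chromatin). Mutant source 1 (red circles) is rightmost in each row, and mutant source 2 (orange squares) moves from right of the control sources for Ccne2 to left of them for Pola2 and Tyms.

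Among the G1/S regulators, Ccne2, a cyclin E that activates Cdk2 at the end of G1, was the member in which the mutant sources were closest. Its signal was 7.77 and 7.57 in mutant sources 1 and 2, against 6.97, 6.84 and 6.33 in control sources 1 to 3. Mutant arrays ran from 7.48 over a median of 7.63 to 7.95, control arrays from 6.21 over 6.87 to 6.97, without overlap. The log2 difference was 0.96 (SE 0.25, a 1.94-fold higher mean; limma adjusted p = 0.301). The other cyclin E gene, Ccne1, did not separate the groups, with 8.87 and 8.01 in the mutant sources against 8.30, 7.93 and 7.34 in the control sources, because control source 1 exceeded mutant source 2.

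Cdc7, the kinase that fires licensed origins together with Dbf4, had the narrowest range over the control sources of all 33 genes. It stood at 10.63 and 10.37 in the mutant sources, against 10.12, 10.23 and 10.20 in the control sources (log2 difference 0.31, SE 0.16, limma adjusted p = 0.525). The control sources thus spanned 0.11, and the mutant sources lay 0.44 and 0.19 above their mean. Unlike the other 32 genes, Cdc7 was lowest in control source 1. E2f1, the transcription factor that drives many of these genes, followed the common order with 11.76 and 10.65 in the mutant sources and 10.90, 10.80 and 10.46 in the control sources. For Gmnn, which encodes the Cdt1 inhibitor geminin, the only probe was not above background on any array.

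Licensing factors split in the same way. Cdt1 stood at 11.44 and 11.15 in the mutant sources against 10.79, 10.77 and 10.45 in the control sources, and its mutant arrays (11.07 to 11.49, median 11.30) did not overlap the control arrays (10.41 to 10.84, median 10.76). Its log2 difference was 0.63 (SE 0.19, limma adjusted p = 0.322). Cdc6 stood at 9.27 and 9.02 in the mutant sources against 8.97, 8.77 and 8.01 in the control sources. Mutant source 2 exceeded control source 1 by 0.05 for Cdc6, less than the array SD of 0.110, so that this separation was within the spread between arrays. Of the other probes of Cdc6, none of them tested, 1 was detected on 4 mutant arrays and 0 control arrays and the others on no array.

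The helicase ring itself was mostly high in mutant source 1 alone. Mcm7 had the largest difference of the 33 genes, at 8.94 and 7.58 in the mutant sources against 7.56, 7.03 and 6.70 in the control sources (log2 difference 1.16, SE 0.48, limma adjusted p = 0.421). The margin of mutant source 2 over control source 1 was 0.02, below the array SD of 0.148, and the mutant arrays (median 7.73, highest 9.07) overlapped the control arrays (6.56 to 7.77). Mcm3 stood at 9.68 and 8.64 in the mutant sources against 8.65, 8.30 and 7.88 in the control sources, a difference of 0.88 (SE 0.39). Mcm6 stood at 12.65 and 11.24 in the mutant sources against 11.52, 11.35 and 10.80 in the control sources, a difference of 0.72 by its brightest probe and of 0.68 and 0.45 by the other tested probes.

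Mcm2, Mcm4 and Mcm5 differed by 0.43, 0.19 and 0.53, and in each mutant source 2 lay below control sources 1 and 2. Orc6, a subunit of the origin recognition complex, differed by 0.27, whereas the probes of Orc1 and Orc2 were not above background on any array. Over the 9 tested licensing genes the median relative to the control mean was 1.16 in mutant source 1 and 0.02 in mutant source 2.

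Sequence upstream of the gene starts was read from the RefSeq promoter table (GRCm38.p6), which held 41 windows for 34 of the 41 genes, each reaching from 250 bases before to 50 bases after a start. The E2F motif was searched as TTTCCCGC, TTTCGCGC, TTTGCCGC or TTTGGCGC on both strands, and overlapping matches count once per window. It was present in 12 of the 41 windows (29.27%), against 744 of all 32851 windows (2.265%). The CCAAT box, searched as CCAAT on both strands, was present in 23 of the 41 (56.10%) against 37.41% of all windows. The CHR motif, searched as TTTGAA on both strands, was present in 5 of the 41 (12.20%) against 17.89%. These counts describe letters in a window and not binding.

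The upstream part of 5 windows is shown. Mutant source 2 lay above all control sources for Cdc6 and Mcm7, but only by 0.05 and 0.02, less than their array SD (0.110 and 0.148). For Mcm5, Mcm6 and Uhrf1 it lay among them, so the 5 genes form no clear contrast. Capitals mark the E2F motif on either strand, and each sequence reads 5′ to 3′ toward the gene start and ends at the base before it. Cdc6 is at chr11:98907901-98908150 (plus strand), Mcm7 at chr5:138171884-138172133 (minus strand), Mcm5 at chr8:75109259-75109508 (plus strand), Mcm6 at chr1:128359706-128359955 (minus strand) and a window of Uhrf1 at chr17:56304063-56304312 (plus strand).
Cdc6: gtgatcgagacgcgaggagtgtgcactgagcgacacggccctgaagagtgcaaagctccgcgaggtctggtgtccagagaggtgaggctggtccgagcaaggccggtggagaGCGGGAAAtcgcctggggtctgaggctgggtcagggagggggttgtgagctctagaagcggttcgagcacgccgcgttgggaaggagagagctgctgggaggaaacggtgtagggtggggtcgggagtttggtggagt
Mcm7: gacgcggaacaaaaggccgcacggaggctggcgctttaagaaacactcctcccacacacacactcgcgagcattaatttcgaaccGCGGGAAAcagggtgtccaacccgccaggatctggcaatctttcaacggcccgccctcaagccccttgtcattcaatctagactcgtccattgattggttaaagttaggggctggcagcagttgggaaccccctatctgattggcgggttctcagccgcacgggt
Mcm5: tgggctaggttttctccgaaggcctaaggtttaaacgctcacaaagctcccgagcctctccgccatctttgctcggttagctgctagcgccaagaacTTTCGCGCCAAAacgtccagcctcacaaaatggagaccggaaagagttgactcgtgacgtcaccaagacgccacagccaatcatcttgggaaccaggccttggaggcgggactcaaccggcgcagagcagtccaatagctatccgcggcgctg
Mcm6: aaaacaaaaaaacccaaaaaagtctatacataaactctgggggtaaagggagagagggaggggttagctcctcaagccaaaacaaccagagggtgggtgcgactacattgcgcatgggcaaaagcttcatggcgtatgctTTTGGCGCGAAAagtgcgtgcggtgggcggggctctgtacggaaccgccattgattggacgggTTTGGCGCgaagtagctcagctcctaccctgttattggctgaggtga
Uhrf1: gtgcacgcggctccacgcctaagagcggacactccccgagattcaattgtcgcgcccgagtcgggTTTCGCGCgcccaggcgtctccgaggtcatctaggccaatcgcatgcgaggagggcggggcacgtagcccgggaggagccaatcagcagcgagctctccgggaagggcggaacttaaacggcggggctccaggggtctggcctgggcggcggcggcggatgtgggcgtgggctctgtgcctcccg

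Cdc6 and Mcm7 hold 1 motif each in this stretch, both with the letters TTTCCCGC on the reverse strand. Mcm5 holds an overlapping pair, and Mcm6 an overlapping pair and a further copy closer to the start. Cdt1, whose 2 mutant sources were both above the controls, has its motif after the start (base 33), as do Mcm3, Lig1 and Pold1. The windows of Rpa2, Fen1 and Cdc7 hold none of these letters. The motif was thus found in 3 of the 6 separating genes with a window. Of these, Cdc6 and Mcm7 separated by less than their array SD. The motif was also found in genes with mutant source 2 among the control sources.

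**Figure D3:**
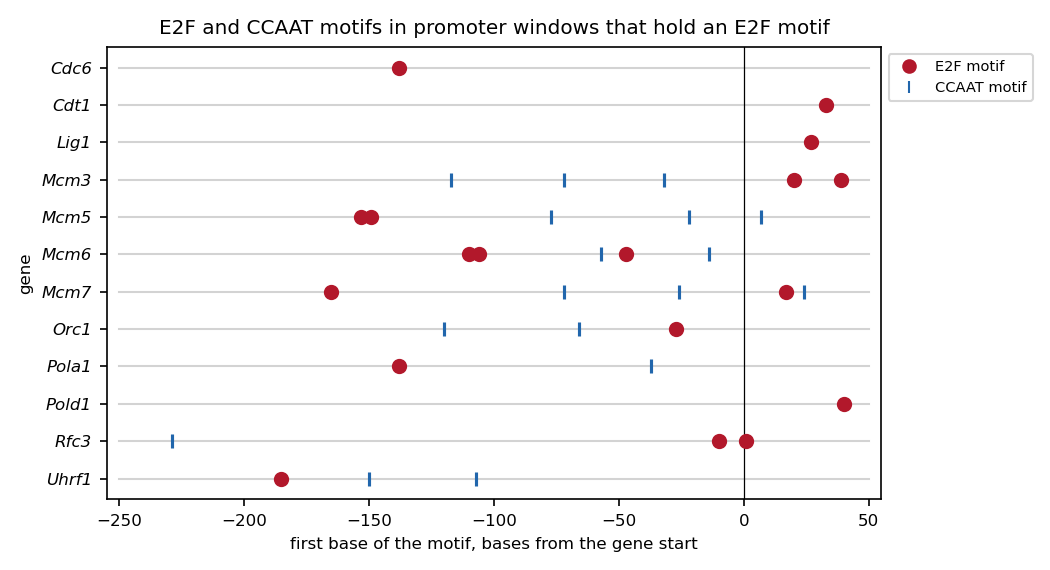
First base of each E2F motif (red circles) and CCAAT box (blue ticks) in the 12 promoter windows of the replication genes that hold an E2F motif, in bases from the gene start (vertical line). The motifs of Cdc6, Mcm5, Mcm6, Mcm7, Orc1, Pola1, Rfc3 and Uhrf1 include positions before the start, and those of Cdt1, Lig1, Mcm3 and Pold1 lie after it.

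Helicase activation was represented by Mcm10 and Cdc45, since Gins1 and Gins2 were not analysed here for want of a named probe. Mcm10, which helps Cdc45 and GINS open the ring, stood at 11.28 and 9.90 in the mutant sources against 10.26, 10.05 and 9.09 in the control sources, a log2 difference of 0.79 (SE 0.53, limma adjusted p = 0.628). Its other tested probe differed by 1.19. Cdc45 stood at 9.87 and 8.72 in the mutant sources against 9.14, 8.95 and 8.00 in the control sources. Mutant source 2 lay between control sources 2 and 3 for Cdc45 and for the brighter probe of Mcm10. By the other tested probe of Mcm10 the mutant sources were at 8.85 and 7.58, against 7.54, 7.35 and 6.18 in the control sources. The 2 probes of Mcm10 thus disagreed on the position of mutant source 2.

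Polymerases and primase showed the lowest position of mutant source 2. Pola2, the regulatory subunit of DNA polymerase alpha, stood at 10.04 and 8.67 in the mutant sources against 9.65, 9.22 and 9.00 in the control sources, so that the mutant sources lay on either side of the control group. Their mean differed from the control mean by 0.07 (SE 0.45), the smallest difference of the 33 genes. Pold1, the catalytic subunit of polymerase delta, behaved alike, at 11.71 and 10.18 in the mutant sources against 10.95, 10.62 and 10.36 in the control sources. Pole, the catalytic subunit of polymerase epsilon, stood at 9.07 and 7.34 in the mutant sources against 8.35, 7.70 and 7.13 in the control sources. Prim2, a primase subunit, differed by 0.56 by its brighter probe and by 0.19 by the other. Over the 4 tested genes the median relative to the control mean was 1.11 in mutant source 1 and -0.43 in mutant source 2. The Pola1 probe was not above background on any array and the Prim1 probe was on 2, both of mutant source 1.

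Among the clamp, clamp loader and single-strand binding genes, Rpa2 stood apart from Rpa1, although both encode subunits of the same complex that coats single-stranded DNA. Rpa2 was 9.91 and 9.16 in the mutant sources against 8.86, 8.68 and 8.38 in the control sources, and all mutant arrays (9.11 to 10.07, median 9.22) lay above all control arrays (8.35 to 8.90, median 8.72). Its log2 difference was 0.90 (SE 0.30, a 1.86-fold higher mean, limma adjusted p = 0.347), and the other tested probe gave 0.79. Rpa1 was 13.29 and 12.31 in the mutant sources against 12.80, 12.64 and 12.49 in the control sources, with mutant source 2 below all control sources and a difference of 0.16. Pcna, the sliding clamp, differed by 0.33, and the clamp loader subunits Rfc4 and Rfc5 by 0.37 and 0.28. Pcna was the gene in which mutant source 1 exceeded the next source least, at 8.57 against 8.55 in control source 1. Rfc3 was not analysed here.

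Among the nucleotide synthesis genes the gaps between the mutant sources ran from 0.64 for Rrm2 to 1.99 for Tk1. Tk1, the thymidine kinase that salvages thymidine in S phase, stood at 12.26 and 10.27 in the mutant sources against 10.89, 10.61 and 9.85 in the control sources. The 2 mutant sources thus differed by 1.99, the most of the 33 genes, and their mean exceeded the control mean by 0.81 (SE 0.64, limma adjusted p = 0.685). The other tested probes of Tk1 differed by 0.60 and, for one detected on 7 arrays, by 0.13. Tyms, the thymidylate synthase, stood at 12.55 and 10.97 in the mutant sources against 11.67, 11.64 and 11.32 in the control sources. By this brightest probe of Tyms every array of mutant source 2 was below every control array (mutant source 2 reached 11.09 at most, and the lowest control array was 11.28), and every array of mutant source 1 was above them all. A further probe gave 9.69 and 8.29 in the mutant sources against 8.97, 8.66 and 8.48 in the control sources. The probes of Tyms disagreed, since a dim one, detected on 5 mutant and 3 control arrays, had mutant source 2 above all control sources, at 6.54 and 6.00 in the mutant sources against 5.81, 5.64 and 5.57 in the control sources (difference 0.60). Rrm1, the large subunit of ribonucleotide reductase, stood at 12.12 and 10.60 in the mutant sources against 11.22, 11.00 and 10.50 in the control sources, while the small subunit Rrm2 stood at 9.79 and 9.15 in the mutant sources against 9.61, 9.28 and 8.52 in the control sources.

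Strand maturation and chromatin genes completed the list. Fen1, the nuclease that trims Okazaki fragments, stood at 12.41 and 11.41 in the mutant sources against 11.32, 11.29 and 10.72 in the control sources (log2 difference 0.80, SE 0.36, limma adjusted p = 0.454). Mutant source 2 exceeded control source 1 by 0.09 for Fen1, close to the array SD of 0.0796, and its arrays touched the control range (lowest mutant array 11.37, highest control array 11.38). Uhrf1, which recruits the maintenance DNA methyltransferase to newly copied DNA, stood at 13.10 and 11.45 in the mutant sources against 12.17, 11.90 and 11.13 in the control sources. Lig1, the ligase that joins the fragments, differed by 0.26 by its brightest probe and by 0.10 to 1.02 over the other 3. Chaf1a and Chaf1b, subunits of the histone chaperone CAF-1, differed by 0.55 and 0.43.

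**Figure D4:**
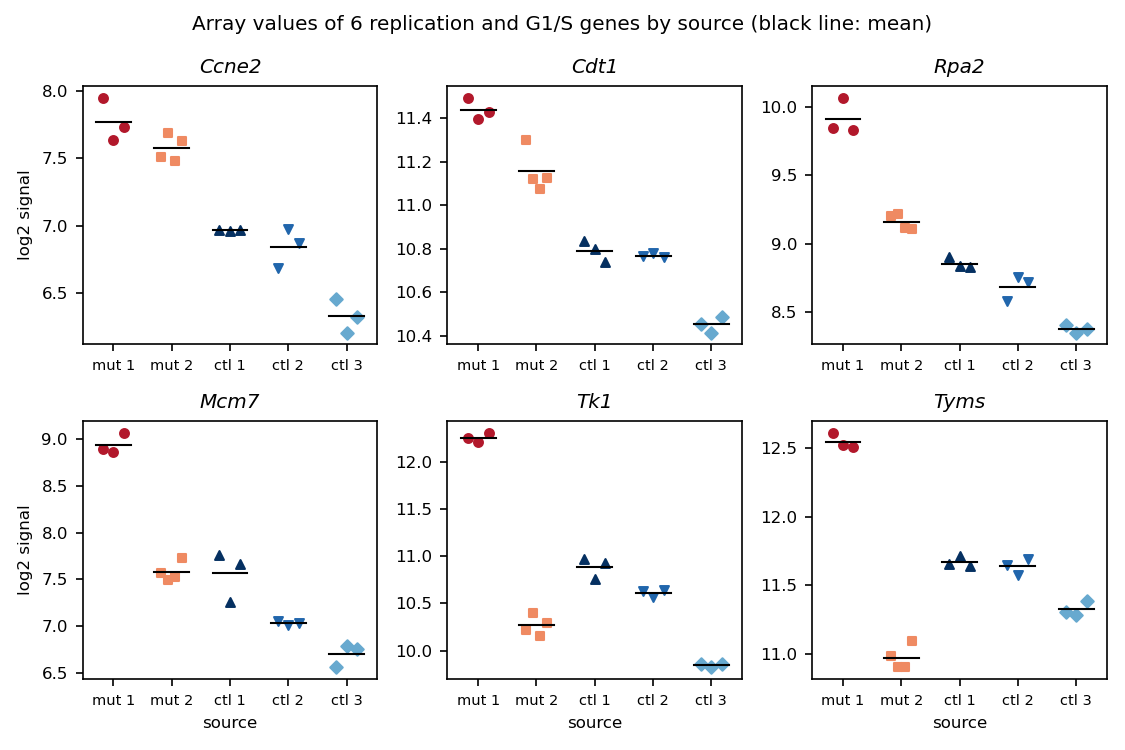
Log2 signal of each array (points) with the mean of each source (black line) for Ccne2, Cdt1 and Rpa2 (top) and Mcm7, Tk1 and Tyms (bottom), mutant sources left of the control sources, each panel with its own axis. In the top row all 7 mutant arrays lie above all 9 control arrays, and in the bottom row the arrays of mutant source 2 lie level with or below control source 1.

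By role, the median of mutant source 1 relative to the control mean stayed between 0.93 (clamp, clamp loader and single-strand binding, 5 genes) and 1.32 (helicase activation, 2 genes). That of mutant source 2 ran from 0.17 for the G1/S regulators (4 genes) and 0.02 for licensing (9 genes) to -0.24 for nucleotide synthesis (4 genes) and -0.43 for polymerases and primase (4 genes). The groups are small and overlap, with single genes of mutant source 2 between -0.07 and 0.86 for the G1/S regulators and between -0.62 and -0.05 for the polymerases. The difference between roles was not tested.

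A wider list of 67 replication and G1/S genes that are not among the 41 was read alongside. Of its 47 tested genes 0 passed at a limma adjusted p below 0.05 (smallest 0.321), and 2 were higher and 0 lower at an unadjusted p below 0.05, where the background is 4.89% higher and 7.34% lower. The list had a median of 0.58 in mutant source 1 and -0.09 in mutant source 2 relative to the control mean. It was less uniform than the 33 genes. Mutant source 1 was the highest source for 34 of the 47, and the difference was above 0 for 38 and below 0 for 9. Both mutant sources lay above all control sources for 10 genes and below them for 2, against 14.1% and 15.3% of all tested genes. Among the 10 were Nasp, a histone chaperone, at 12.23 and 12.20 in the mutant sources against 11.89, 11.78 and 11.56 in the control sources. Atad2, a dim gene, was at 6.52 and 6.35 in the mutant sources against 5.90, 5.93 and 5.70 in the control sources. Its mutant arrays (lowest 6.09) overlapped its control arrays (highest 6.31). Dbf4, the partner of Cdc7, was 10.63 and 10.33 in the mutant sources against 10.17, 9.97 and 9.53 in the control sources. Dut and Dck, enzymes of the nucleotide supply, differed by 0.90 and 0.71, and Tfdp1, the dimer partner of E2F factors, by 0.52. Mcmbp, E2f5, Orc4 and E2f7 differed by 0.18, 0.07, 0.11 and 0.30, with overlapping mutant and control arrays. The 2 lower genes were Rb1, which encodes the retinoblastoma repressor of E2F (-0.29), and Rrm2b, the ribonucleotide reductase subunit used outside S phase (-0.22).

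Mitosis and spindle genes had much the same profile. Their 21 tested genes had a median of 1.13 in mutant source 1 and -0.02 in mutant source 2, and mutant source 1 was highest for 21 of 21. Only Anln, which encodes anillin of the cleavage furrow, had both mutant sources above all control sources, at 12.02 and 11.74 against 11.56, 11.48 and 11.10. Cdca8, of the chromosomal passenger complex, differed by 0.86 (SE 0.42). None of these genes had a difference below 0 and none passed (smallest limma adjusted p 0.412).

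Inhibitors of cyclin-dependent kinases and D-type cyclins, which act upstream of E2F, differed in another way, with 9 tested genes at a median of -0.30 in mutant source 1 and -0.28 in mutant source 2. Both mutant sources were below all control sources for 4 of the 9 genes (15.3% of all tested genes). At an unadjusted p below 0.05, 4 were lower and 0 higher, where 7.34% of all tested genes were lower and 4.89% higher. Cdkn1b, which encodes the Cdk2 inhibitor p27, was 7.32 and 7.30 in the mutant sources against 8.39, 8.13 and 7.92 in the control sources (log2 difference -0.84, SE 0.21, limma adjusted p = 0.286). Cdkn1c differed by -0.58, and Ccnd2 and Ccnd1 by 0.35 and 0.12 with overlapping sources. The list was not uniform. Cdkn1a was 13.59 in mutant source 1 but 15.02 in mutant source 2, against 14.58, 14.53 and 14.53 in the control sources, and Cdkn2c differed by 0.008. Histone genes, 8 in number, had medians of 0.66 in mutant source 1 and -0.24 in mutant source 2, and ranged from H2ax at 0.56 and H2az1 at 0.43 to H2ac18 at -0.38 and H1f2 at -0.42.

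By their median and their summed signal, markers of the hair matrix ordered mutant source 1 and the control sources as the replication genes did. Mutant source 1 was the highest for 4 of 7 matrix genes, and control source 1 was for Hoxc13, Wnt10b and Lef1. Of 8 listed matrix genes 7 were tested and Foxn1 was not (detected on 4 arrays). Their summed linear signal was 17600 in mutant source 1 and 2537 in mutant source 2, against 13567, 7651 and 3206 in control sources 1 to 3, and their median relative to the control mean was 1.19 and -1.44 in the mutant sources against 0.90, 0.10 and -0.92 in the control sources. Shh, the matrix signal of growing follicles, was 10.00 and 5.74 in the mutant sources against 7.31, 6.75 and 5.89 in the control sources. Markers of differentiated keratinocytes ran the other way, with a summed signal of 48177 and 131168 in the mutant sources against 65304, 100238 and 113484 in the control sources (6 of 8 tested, Dsg1a on no array and Flg not analysed here). For markers of several other cell types both mutant sources lay beneath the control range, namely 7 of 7 sebocyte, 6 of 7 T cell, 5 of 7 endothelial and 3 of 4 adipocyte genes, against 15.3% of all tested genes. The summed signal of the sebocyte genes was 17604 and 14522 in the mutant sources against 35617 to 60424 in the control sources. That of the T cell genes was 13398 and 11173 against 14938 to 24836, most of it from Thy1. The median of the T cell genes relative to the control mean was -1.70 in mutant source 1 and -3.17 in mutant source 2. The part of any of these markers in the replication signal was not tested. In mutant source 2 the matrix median lay below that of control source 3, whereas the median of the replication genes lay above it, at -0.06 against -0.40.

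**Figure D5:**
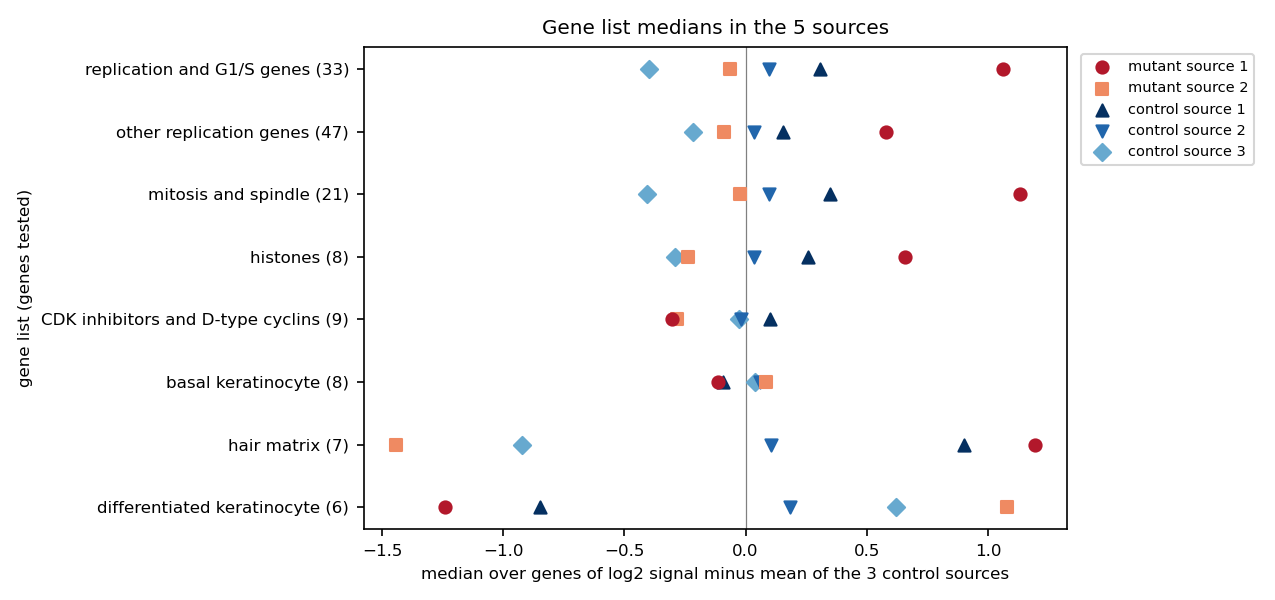
Median over the tested genes of 8 lists of the log2 signal minus the mean of the 3 control sources, per source (number of genes in parentheses). Replication, mitosis and hair matrix lists order the control sources alike and have mutant source 1 on the right, the differentiated keratinocyte list has the reverse order of the hair matrix list, and the list of CDK inhibitors and D-type cyclins has both mutant sources on the left.

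The 5 tested genes outside the list whose profile over the 5 sources was nearest to the mean profile of the 33 were Tedc1, Depdc1b, Atic, Zfp101 and H2ac8, with root mean square distances of 0.0536 to 0.0713 on the log2 scale. Atic, an enzyme of purine synthesis, was 11.63 and 10.60 in the mutant sources against 10.87, 10.66 and 10.30 in the control sources. Distances of the 33 genes themselves to their mean profile had a median of 0.187 and ran from 0.0508 to 0.382. With 5 sources this likeness is a description only.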

How the data were processed

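Raw probe intensity and its detection p-value, 1 pair per array, were deposited in a single table. Per the submitters' processing notes GenomeStudio was used, version not given. The authors' further deposited table holds normalized intensity on a linear scale. It equals the quantile-normalized raw intensity to a median of 0.00648% and serves as an alternative. Per the labels' protocols, total RNA was amplified and labelled with biotin. Median raw signal per array was 175.9 to 223.5, and 52.2% to 57.0% of 25697 probes were detected per array. The 4 arrays of mutant source 2 had the lowest detection, 52.2% to 53.7%, against 54.8% to 57.0% on the other arrays. Their median raw signal was 193.6 to 200.4, against 204.9 to 223.5 in mutant source 1 and 175.9 to 214.9 in the control arrays. The part of this in the gap between the mutant sources was not tested. Precision is limited by the few arrays and sources.

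The raw signals were passed through neqc of limma 3.58.1 (R 4.3.3; offset 16), which corrects background, quantile-normalizes and takes log2. Testing was limited to 14504 probes detected (p below 0.05) on 7 arrays or more. Names came from the platform annotation, with symbols updated through RefSeq (GRCm38.p6). The brightest probe on average stood for its gene. Arrays of a group correlating above 0.99 were averaged as 1 source, and limma's moderated test with a variance trend (residual df 3, prior df 2.53) compared 2 mutant with 3 control sources, adjusted over all probes (Benjamini-Hochberg). The fit was tested on simulated data with independent noise in each probe, for whether it returned the differences put in. Such noise holds no shift shared by many genes, so the test does not cover shifts of that kind between sources. Deviations of same-numbered mutant and control arrays correlated at -0.39 to 0.42 (7 pairs). Arrays of a source are near-identical, so these values follow the sources and cannot decide whether the numbers are pairs. The labels do not use the number as a block, and it was not taken as a pair.

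The genes, lists and rules were chosen with earlier results of these data known. Values in every source are given for genes whose mutant sources lie on 1 side of all control sources, the 8 largest differences and the 6 widest gaps between mutant sources. From the other replication genes those separating the sources are named, and from mitosis, CDK inhibitor and histone lists the 2 with the smallest p in each direction. Further genes were named after their values were seen.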

Additional observations from a re-analysis of the deposited data

Results flagged for a closer look

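Of the 17 replication gene probes too dim to be tested, 4 were detected on mutant arrays and on 0 of the 9 control arrays. An untested probe of Tyms went the other way, detected on 0 mutant arrays and 1 control array. Another of Tyms was detected on 3 mutant and 3 control arrays. The matching share over all untested probes was not computed, so these counts are a description only. A further probe of Cdc6 was detected on 4 mutant arrays, 3 of mutant source 1 and 1 of mutant source 2. The other 2 probes of Mcm4 were each detected on 2 arrays, and the only probe of Prim1 on 2 arrays, all of mutant source 1.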

How the results depend on the processing

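No probe of the replication genes passed under any change of background correction, scaling, filter, probe choice or variance trend, on either slide, with the slide as a block, or without any 1 array or source. Treating the 16 arrays as separate samples passed 13 of the 47 probes of these genes and 4914 of all 14504, and 4 genes separated the groups. The source as a random block passed 4 of the 47 and 883 of all. The title number as a replicate block passed 9 of the 47 and 3395 of all, with a median difference of 0.36. With separate samples and with the title number, probes of these genes passed less often than all probes, and with the random block slightly more often. The first and the last of these fits count near-identical arrays as separate. The random block takes 1 correlation within sources (0.816) for all probes. Where arrays of a source lie closer, it still counts them as partly separate. For Fen1 the array SD was 0.0796, against an SD between sources of 0.71 (mutant) and 0.34 (control). In all of these fits the Gab1 difference passed, at -0.99, -1.03 and -1.0002. It also passed with the slide as a block (-1.03), which passed 331 probes in all. The count of 8 passing probes was 0 for the authors' table, an offset of 50, scaling to the 75th percentile and no background correction, with detection on all arrays, on slide 1 or slide 2 alone and without any 1 source, and it was 1 with cyclic loess, 4 without a filter and 5 with probes of a gene averaged. The cause was not tested. Leaving out 1 array gave 0 to 8 (0 without control array 2, 4 or 6), 6 to 8 separating genes, a median difference of 0.46 to 0.51 and a Gab1 difference of -1.06 to -1.02. Without mutant source 1 the median of the 33 genes was -0.064, 12 genes lay outside the control range (7 higher, 5 lower), and Pold1, Pole, Rrm1, Tyms, Tk1 and Uhrf1 turned to -0.47, -0.39, -0.31, -0.58, -0.18 and -0.28. Without mutant source 2, 33 genes lay outside it. In the other alternatives the median stayed between 0.25 and 0.65. The separation count was not computed for the block fits, which give no source means of their own. Signal over background limits the 17 untested probes of these genes.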
